A study of Schizosaccharomyces pombe with 18 samples.

Results

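Intergenic non-coding RNAs of the fission yeast Schizosaccharomyces pombe were followed through 6 genotypes that differ in the silencing complex SHREC. They were taken by position alone: a row of the deposited table with a name of the SPNCRNA type was kept where its annotated interval overlapped no row of another type on the same chromosome. Rows with a midpoint within 100 kb of a chromosome end were left out, and so were 8 RNAs by name. This gave 377 RNAs out of 7018 rows, of which 1540 carry an SPNCRNA name. A further 45 intergenic RNAs lay near chromosome ends and 3 more fell out by name. Of the 377, 168 lie on chromosome 1, 147 on chromosome 2 and 62 on chromosome 3.

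Each genotype was represented by 3 biological replicates, 18 libraries in all, grown in rich medium (YES) at 25 °C. All strains were h-, leu1-32 and ura4-D18. Wild type (WT), mit1D (mit1D::Natmx6) and chp2D (chp2D::KanR) carried ade6-210, arg3-D4 and his3-D1. The clr1D (clr1D::KanMX4), clr2D (clr2D::his7+) and clr3D (clr3D::kanMX6) strains are labelled arg3D and his3D, with ade6-210 or 216 for clr1D, where the label itself is marked uncertain, ade6-216 for clr2D and ade6-210 for clr3D. One strain stood for each deletion, so a strain's other differences and its deletion cannot be told apart. The description labels place the WT and clr libraries in one numbering series and the mit1D and chp2D libraries in another, so that a contrast of these 2 mutants with WT is also a contrast of the series. RNA was depleted of ribosomal RNA, and the level of a row is given as FPKM, fragment counts divided by row length and library depth, after a scaling between libraries by factors of 0.971 to 1.067. Fold changes are differences of log2(scaled FPKM + 1) ± SE from limma, called where the Benjamini-Hochberg adjusted p over all 6693 rows tested was under 0.05. Adding 1 makes these log2 values smaller than the ratio of means for weak RNAs.

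SHREC joins Clr3, a histone deacetylase, with Mit1, a chromatin remodeller of the Snf2 type, the scaffold Clr1, the protein Clr2, and Chp2, an HP1-family protein that binds methylated histone H3. The complex is known for keeping RNA polymerase II away from heterochromatin at centromeres, telomeres and the mating-type region. Intergenic transcripts of fission yeast arise largely from the nucleosome-free starts of neighbouring genes and are in many cases trimmed by the nuclear exosome, with the YTH-family protein Mmi1 marking those that hold copies of its hexamer. In centromeric repeats, transcripts feed the RNA interference machinery that helps to keep histone H3 methylated there.

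Stretches of sequence from RefSeq build ASM294v3, taken from rows with the same coordinates there and in the deposited table, show what the results rest on. A pair from different centromeres shows how alike the centromeric RNAs are. Capitals mark the 4 bases that differ over 120 bases of SPNCRNA.231 (chr1:3761161-3761280, plus strand, bases 139 to 258 of the RNA) and SPNCRNA.373 (chr2:1640730-1640849, plus strand, bases 617 to 736).
SPNCRNA.231: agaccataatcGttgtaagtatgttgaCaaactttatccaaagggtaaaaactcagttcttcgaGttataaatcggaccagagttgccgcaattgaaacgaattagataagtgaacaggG
SPNCRNA.373: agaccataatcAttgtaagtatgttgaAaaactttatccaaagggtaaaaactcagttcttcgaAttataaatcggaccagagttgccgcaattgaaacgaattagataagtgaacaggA
Over 952 aligned bases this pair was 96.8% identical. SPNCRNA.360 and SPNCRNA.373 were 99.9% identical over 1397 bases, SPNCRNA.234 and SPNCRNA.362 98.9% over 1032, and SPNCRNA.232 and SPNCRNA.359 97.8% over 680.

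The RNA with the largest rises, SPNCRNA.234, holds a single stretch that can be told from the rest of the genome. Of its 983 words of 50 bases, 51 occur once in the genome, all inside 100 bases (chr1:3786775-3786874, plus strand), shown without capitals.
SPNCRNA.234: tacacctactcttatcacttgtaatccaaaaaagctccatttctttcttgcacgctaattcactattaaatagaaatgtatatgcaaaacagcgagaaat

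For nam5 the first 200 bases (chr1:3753730-3753929, plus strand) are shown because the RNA is named for Mmi1. Capitals mark the hexamer TNAAAC, the DNA form of the Mmi1 core motif, searched on the sense strand with overlaps allowed, of which 4 fall in this stretch.
nam5: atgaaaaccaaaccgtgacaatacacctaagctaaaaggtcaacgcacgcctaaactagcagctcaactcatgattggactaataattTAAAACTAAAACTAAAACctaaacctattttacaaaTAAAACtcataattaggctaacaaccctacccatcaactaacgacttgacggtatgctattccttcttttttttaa
The whole nam5 interval held 9 such hexamers, 8.32 per kb, and nam6 also held 9, 8.27 per kb. The median over the 323 intergenic RNAs with sequence was 1 hexamer, or 1.87 per kb, and 5 of them held at least 9. Of 23234 genome windows of nam5's length, 38 held as many, which is 0.164%. A match describes letters and not a binding site.

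Unique loci complete the set. The 250 bases before the annotated start of omt3 (chr1:4515820-4516069, plus strand) precede the unique RNA with the widest range over the genotypes, with 4 matches of TATAAA, on either strand, in capitals.
omt3 promoter: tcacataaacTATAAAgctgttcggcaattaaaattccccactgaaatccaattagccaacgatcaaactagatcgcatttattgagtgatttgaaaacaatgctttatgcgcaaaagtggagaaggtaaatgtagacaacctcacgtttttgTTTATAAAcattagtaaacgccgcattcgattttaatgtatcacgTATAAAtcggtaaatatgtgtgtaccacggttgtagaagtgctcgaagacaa
At least 1 such match stood in 2976 of 6844 windows of the same length before all annotated rows (43.5%) and in 137 of the 333 before intergenic RNAs (41.1%). The small RNA sno530 (chr1:1966483-1966635, minus strand) is shown whole, without capitals, as the RNA that fell in every deletion strain.
sno530: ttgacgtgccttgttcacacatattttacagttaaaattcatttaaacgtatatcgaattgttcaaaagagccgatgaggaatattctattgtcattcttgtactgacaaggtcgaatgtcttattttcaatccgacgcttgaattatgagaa

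The intergenic RNAs were mostly long and weak. Their median length was 601 bases (56 to 5123), and 332 reached 200 bases. The nearest row of another type lay at a median distance of 181 bases (0 to 7285). Both neighbours pointed away from the RNA in 207 cases, in the same direction as each other in 154 and toward it in 14, with no strand for 2. The RNAs formed 319 separate loci, 49 of which held several and up to 4, and 165 RNAs overlapped another SPNCRNA row. Median GC content was 32.4% over the 323 RNAs with sequence. In the newer annotation 8 of these 323 overlap a protein-coding gene.

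In WT the median level was 3.29 scaled FPKM, with quartiles of 1.19 and 7.47. SPNCRNA rows that overlap other rows had a median of 18.5 (n = 1115), and rows of other types 34.7 (n = 5478). Of the 377, 86 were below 1 in WT and 14 were at or above 100. At the strong end stood housekeeping RNAs: mrp1, the RNA of RNase MRP, at 4688, and srp7, the RNA of the signal recognition particle, at 1974. At the limit of 100 kb, SPNCRNA.1089, just inside it, had a WT level of 6.27, and SPNCRNA.117, at 99.8 kb and so left out, had 1.32.

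**Figure D1:**
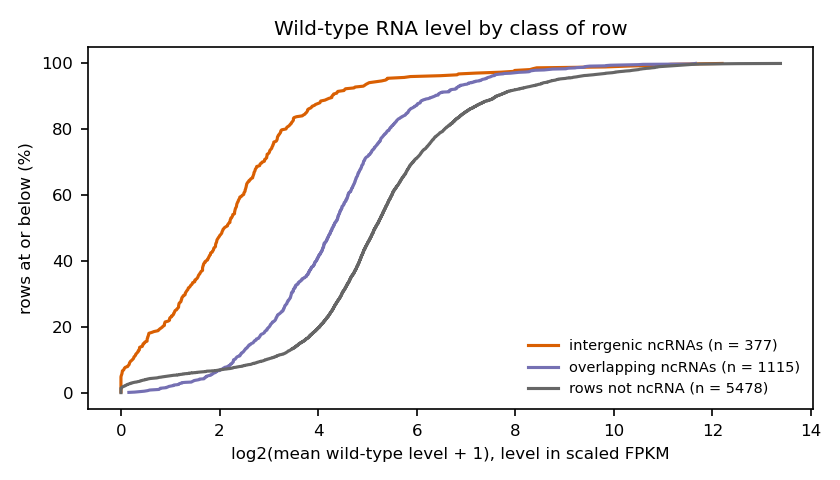
Cumulative share of rows (percent, vertical) at or below a given mean WT level, on a log2(level + 1) axis of scaled FPKM, for 377 intergenic RNAs, 1115 overlapping SPNCRNA rows and 5478 rows of other types. The curve of the intergenic RNAs lies left of the other curves over most of its course, with medians of 3.29, 18.5 and 34.7. Levels of overlapping SPNCRNA rows may include reads of the rows they overlap.

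Depth recovered from the FPKM values ran from 26.17 to 101.8 M reads. It was lowest in the chp2D libraries (26.2 to 32.9) and in mit1D replicates 1 and 2 (29.25 and 30.03). The median intergenic RNA was covered by 46 to 192 reads in a library, and 39 to 90 of them had under 10 reads. Intergenic RNAs took 0.517 to 0.739% of a library's depth. The row of the deleted gene was lower in its own strain than in WT in every case, from 13.5 to 0.0158 for mit1, 35.7 to 4.93 for clr3, 13 to 2.41 for clr1 and 13.1 to 4.08 for chp2. It was least reduced for clr2, at 15.1 against 19.8. Genes of both M and P cells were read in all strains labelled h-, and the M-cassette row mat1-Mc stood at 0 to 0.01, so these rows say nothing on mating type.

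A row was tested where FPKM reached 1 in at least 3 libraries, which 308 of the 377 did. Among the 69 that did not, 14 were listed at 0 in every library. Of these 14, 13 have under 10% of their 50-base words found once in the genome, and SPNCRNA.369 is unique throughout. How reads with several matching places were counted is not given in the sources used here. Of the 308, 9 were below 1 in every WT library. Those 9, the centromeric rises below among them, were tested only through their deletion libraries and so had to differ.

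**Figure D2:**
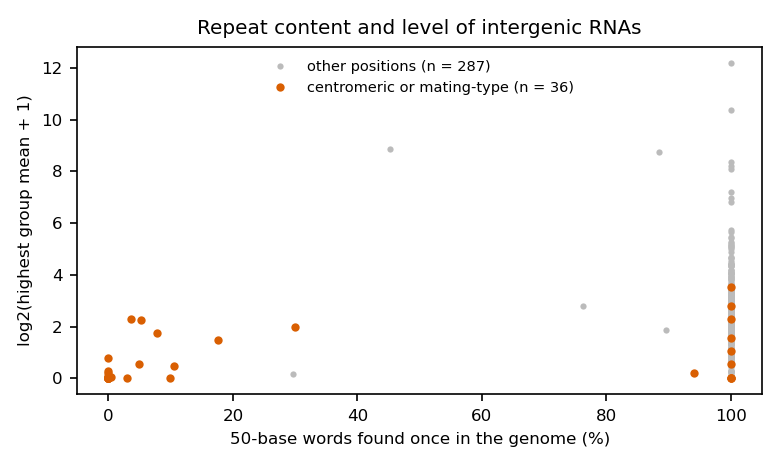
Highest group mean of each intergenic RNA, as log2(scaled FPKM + 1) on the vertical axis, against the percent of its 50-base words found once in the genome. Each point is 1 of 323 RNAs with sequence, 36 of them centromeric or at the mating-type region. Of the 28 RNAs below 50% unique, 26 are centromeric or at the mating-type region, and most of them lie near 0.

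In the clr1D strain more intergenic RNAs were higher than lower. Of the 308 tested, 62 rose (20.1%) and 23 fell (7.47%), beside 9.31% and 8.29% of all 6693 rows. Loss of clr2 gave 51 that rose and 19 that fell, 16.6% and 6.17% beside 7.31% and 4.99% of all rows. For clr3D the calls were 49 and 34, or 15.9% and 11% beside 14.9% and 14.1% of all rows, with the share of rises near that of all rows. Counted by locus, 51 of 253 loci held an RNA that rose in clr1D and 17 one that fell, with 41 and 14 for clr2D, and 37 and 30 for clr3D. The split depended on the scaling: after quantile normalization clr1D had 52 higher and 36 lower, so that 59.1% of calls were higher where 72.9% had been, and clr2D 38 and 29 (56.7%, where 72.9% had been). The clr2D count of lower RNAs was 10 without WT replicate 1, 10 without clr2D replicate 2 and 9 without clr2D replicate 3, and the clr3D count was 20 without WT replicate 1.

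In mit1D and chp2D more RNAs fell than rose. In mit1D 37 rose and 47 fell (12% and 15.3%, beside 14.7% and 12.5% of all rows), and in chp2D 22 rose and 45 fell (7.14% and 14.6%, beside 12% and 10.7%). The chp2D count of higher RNAs was 12 without WT replicate 3, and that of lower RNAs was 73 with a replicate block over WT and the clr strains. Median log2 fold changes over the tested RNAs were 0.045 in clr1D, 0.040 in clr2D, 0.005 in clr3D, -0.054 in mit1D and -0.063 in chp2D, and those over all rows lay between -0.006 and 0.002. After quantile normalization the signs of the clr medians turned, to -0.049 in clr1D, -0.060 in clr2D and -0.016 in clr3D, while mit1D and chp2D kept theirs at -0.032 and -0.027. Most changes were small. The number of RNAs called with a log2 fold change of at least 1 was 12, 6, 8, 4 and 3 of 308 in the same order. Over all 6693 rows it was 52, 41, 47, 53 and 34. Centromeric RNAs made up 5, 4, 5, 2 and 2 of the intergenic ones. The median size among called RNAs was 0.43 to 0.46, against 0.19 to 0.24 for all called rows. Intergenic RNAs were weaker, with a WT median of 3.29 against 29.1 for all rows. The part of level in this gap was not tested.

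The first replicates of WT, clr1D, clr2D and clr3D were each the highest of their group in the median deviation of intergenic RNAs, at 0.044, 0.130, 0.127 and 0.070 on the log2 scale. The other libraries of these groups lay between -0.033 and 0.059, those of mit1D between -0.070 and -0.019 and those of chp2D between -0.094 and -0.076. For rows that are not non-coding RNAs no library deviated by more than 0.004. The part of this shift in the counts was not tested.

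**Figure D3:**
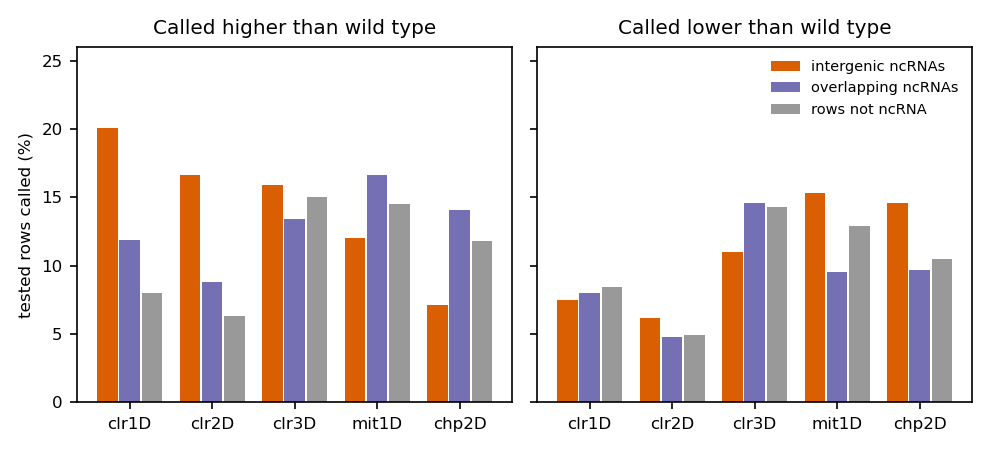
Percent of tested rows called higher (left) or lower (right) than WT in each deletion strain, in bars from 0, for intergenic RNAs, overlapping SPNCRNA rows and other rows. Among intergenic RNAs the higher share falls from 20.1% in clr1D to 7.14% in chp2D, while the lower share is 7.47% in clr1D and 14.6% in chp2D.

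Deletions were also tested against each other. Between clr1D and clr2D, limma called 0 intergenic RNAs higher in clr1D and 3 lower (beside 0.105% and 0.374% of all rows, 0.478% in all). At an unadjusted limma p under 0.05 there were 9 and 8 (2.92% and 2.6%), beside 59 and 59 of all 6693 rows. In limma voom on recovered reads 0 were higher. Between mit1D and chp2D limma called 0 in either direction (0.0896% and 0.0747% of all rows), with a smallest adjusted p of 0.365 and 0 in limma voom. At an unadjusted limma p under 0.05 there were 20 and 7 (6.49% and 2.27%), beside 220 and 114 of all rows. Both directions together made 8.77% of the tested intergenic RNAs and 4.99% of all rows. A miss of the threshold does not show that these strains were alike. In clr3D against the mean of clr1D and clr2D, 41 were higher and 70 lower (beside 20.8% and 20.4% of all rows). That split also moved with the scaling, to 63 and 49 under quantile normalization and to 26 and 71 with FPKM as deposited.

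In the mean of the 3 clr strains against the mean of mit1D and chp2D, 123 intergenic RNAs were higher (39.9%) and 39 lower (12.7%), beside 29.2% and 28.4% of all rows. The filter on low values was passed only with the help of the clr libraries by 14 RNAs, 6 of them among the 123, and only with the help of mit1D and chp2D by 3. The median difference was 0.103, against 0.003 over all rows. Quantile normalization gave 94 and 83, with a median of 0.009. In this comparison the genotypes, the numbering series and the arg3 and his3 alleles coincide and cannot be told apart. Over all 5 deletions the F test called 182 of the 308 (59.1%), beside 65.9% of all rows.

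Of the 84 tested RNAs of at least 1000 bases, 32 rose (38.1%) and 9 fell (10.7%) in clr1D, beside 8.84% and 9.13% of all rows of that length. Of the 76 from 600 up to 1000 bases 15 rose (19.7%) and 3 fell, beside 11% and 6.24%. Of the 117 from 200 up to 600 bases 13 rose (11.1%) and 8 fell, beside 11.4% and 4.7%, and of the 31 shorter ones 2 rose and 3 fell, beside 7.18% in each direction. In chp2D the longest RNAs had 10 rises and 14 falls, or 11.9% and 16.7% beside 12.9% and 9.91%. The F test called 76.2%, 63.2%, 47.9% and 45.2% of the intergenic RNAs from the longest to the shortest, beside 68.6%, 61.5%, 56.6% and 47.8% of all rows of these lengths. Longer rows collect more reads at a given level, and the part of read number in this was not tested.

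By position, the 272 tested RNAs away from centromeres, mating-type region and chromosome ends held 51 rises and 21 falls in clr1D. The numbers were 40 and 15 for loss of clr2, 42 and 30 for loss of clr3, 27 and 44 for loss of mit1, and 14 and 41 for loss of chp2. As shares, the rises were 18.8%, 14.7%, 15.4%, 9.93% and 5.15%, beside 9.31%, 7.31%, 14.9%, 14.7% and 12% of all rows, of which 8.29%, 4.99%, 14.1%, 12.5% and 10.7% fell. The 26 tested RNAs from 100 to 200 kb off a chromosome end held, in the same order of strains, 6 rises and 1 fall, 5 and 1, 2 and 4, 4 and 3, and 3 of each. Among the 252 tested RNAs whose 50-base words are all unique, rises and falls numbered 47 and 15, 38 and 15, 33 and 30, 25 and 33, and 13 and 31.

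The centromeric repeat RNAs were the largest rises. SPNCRNA.234 (chromosome 1, 3786105 to 3787136), beside centromere 1, stood at 0.306, 0.255 and 0.323 in the WT libraries. It stood at 3.68, 3.56 and 4.17 in clr1D, at 3.62, 3.47 and 2.96 in clr2D and at 3.44, 3.82 and 2.99 in clr3D. In mit1D it was at 2.23, 2.09 and 2.2, and in chp2D at 2.18, 1.48 and 1.57. The clr libraries were highest, mit1D and chp2D lay between, and no deletion library overlapped WT. Ratios of means to WT were 12.9 in clr1D, 11.4 in clr2D, 11.6 in clr3D, 7.37 in mit1D and 5.92 in chp2D. SPNCRNA.234 reached an FPKM of 1 in no WT library, so it was tested against WT only through the deletion libraries and had to differ. In a fit without the filter on low values its log2 fold change was 1.89 ± 0.09 in clr1D (adjusted p = 1.37e-09). In chp2D it was 1.08 in the same fit (adjusted p = 2.51e-06). In bulk RNA a low level in every cell and a higher one in few cells cannot be told apart. The WT values rest on 25, 12 and 34 reads.

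The other tested RNAs of the repeats followed the same order of groups. SPNCRNA.232 stood at 0.251, 0.0595 and 0.124 in WT, on 22, 3 and 14 reads, and at 2.34, 2.16 and 2.5 in clr1D. Its mean was 1.06 in mit1D and 0.805 in chp2D, 7.28 and 5.55 times WT, against 16.1 times in clr1D. SPNCRNA.373, of centromere 2, stood at 0.6, 0.261 and 0.472 in WT and at 3.98, 3.88 and 3.78 in clr3D. SPNCRNA.373 was higher in clr3D than in the mean of clr1D and clr2D by 0.31 ± 0.10 (adjusted p = 0.0192), a call lost without clr3D replicate 1 (0.0664) or 2 (0.0526) and with a pseudocount of 0.1 (0.081). Its mean was 2.53 in mit1D and 1.98 in chp2D. SPNCRNA.231, its near-copy on chromosome 1, had means of 0.106 in WT, 1.56 in clr1D, 1.18 in clr2D and 1.77 in clr3D. In chp2D SPNCRNA.231 stood at 0.401, 0.252 and 0.344, above every WT library, but its log2 fold change of 0.27 ± 0.11 was not called (adjusted p = 0.1). It was called without the filter on low values (adjusted p = 0.0189), with a pseudocount of 0.1 (0.00746), after quantile normalization (0.017) and in limma voom (0.000755). SPNCRNA.359 rose from 0.541 in WT to 2.51 in clr1D, 2.91 in clr3D, 1.55 in mit1D and 1.5 in chp2D.

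The clr strains were also set against the mean of mit1D and chp2D. It was 0.62 ± 0.07 for SPNCRNA.234 (adjusted p = 1.81e-06), 0.52 ± 0.05 for SPNCRNA.359 and 0.38 ± 0.07 for SPNCRNA.373 (adjusted p = 0.000394). These RNAs reached an FPKM of 1 in every mit1D and chp2D library as well as in every clr library. SPNCRNA.231 reached it in the 9 clr libraries alone and SPNCRNA.232 in those and 2 of mit1D, so both passed the filter only through the clr strains and had to differ, and their differences of 0.71 and 0.70 are given as a description. Since most of the 50-base words of these RNAs also occur elsewhere in the genome (5.19% of 50-base words unique for SPNCRNA.234, 7.77% for SPNCRNA.232, 3.62% for SPNCRNA.373, 17.6% for SPNCRNA.231 and 30% for SPNCRNA.359), the level of one copy is uncertain and the RNAs are not separate observations.

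**Figure D4:**
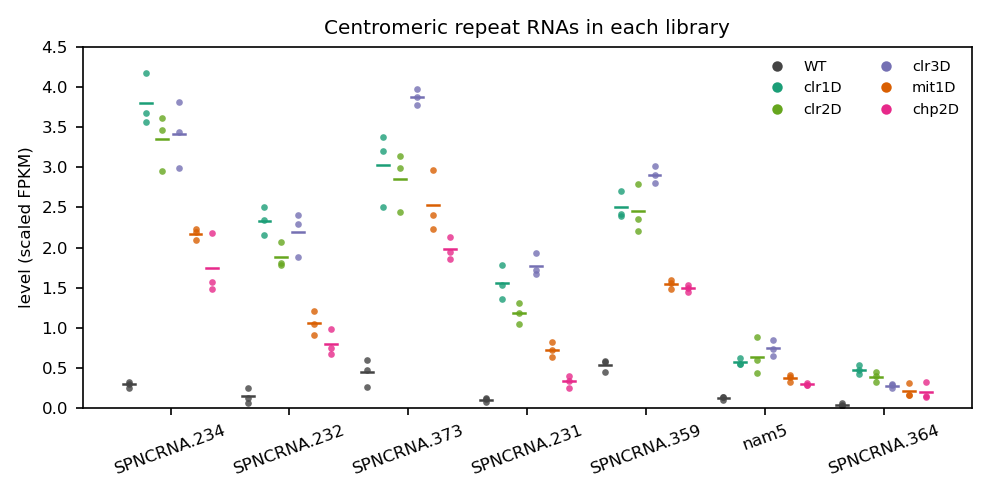
Level in scaled FPKM (linear axis) of 7 RNAs of the centromeric repeats in every library, coloured by genotype, with a short line at each group mean. For SPNCRNA.234 the WT points lie near 0.3, the clr points between 2.96 and 4.17, and the mit1D and chp2D points between 1.48 and 2.23.

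Of the 33 centromeric RNAs 9 were tested, and 15 were at 0 in WT. In a fit without the filter on low values, which took in 21 of them, 8 were higher and 1 lower in clr1D, 7 and 3 in clr2D, 7 and 1 in clr3D, and 8 higher in mit1D and 6 in chp2D. Over all 6950 rows of that fit 9.08%, 7.25%, 14.2%, 14.2% and 11.3% were higher in the same order, and 7.88%, 4.94% and 13.6% lower in the clr strains. RNAs at 0 in WT could not be called lower. Among the centromeric RNAs was nam5, at a mean of 0.127 in WT, 0.573 in clr1D, 0.638 in clr2D, 0.746 in clr3D, 0.372 in mit1D and 0.297 in chp2D. Its log2 fold change in that fit was 0.63 in clr3D (adjusted p = 7.09e-05) and 0.20 in chp2D (adjusted p = 0.0914). The near-identical nam6, 99.5% identical over 1041 bases, was listed at 0 in all libraries, so how reads were split between the pair is uncertain. SPNCRNA.364 rose from 0.0387 in WT to 0.479 in clr1D, and in chp2D stood at 0.203 (adjusted p = 0.0581).

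Unique RNAs on the flank of centromere 3 did not share this order. SPNCRNA.481, an RNA of 89 bases between tRNA genes, had means of 7.47 in WT, 5.46 in clr1D, 4.46 in clr2D, 6.44 in clr3D, 10.5 in mit1D and 10.4 in chp2D. It was lower in the clr strains than in mit1D and chp2D, by -0.84 ± 0.12 (adjusted p = 1.96e-05). SPNCRNA.1172, whose interval covers it on the other strand, was lower there too, at -0.69 (adjusted p = 1.73e-06), and the pair shares reads. SPNCRNA.480 fell in clr1D and clr2D, from 1.97 to 1.17 and 1.04 (adjusted p = 0.0238 and 0.0107). The SPNCRNA.480 call in clr1D was lost without WT replicate 1 or 2 or clr1D replicate 1 or 2 (adjusted p of 0.0562 to 0.0833), and that in clr2D without clr2D replicate 2 (0.0574). Both were lost in a fit of only the groups compared (0.0633 and 0.0836). SPNCRNA.524, on the left flank of centromere 1, had means of 0.611 to 1.07 and was called in no deletion, with adjusted p from 0.458 to 0.949. The boundary RNAs IRC1-L and IRC1-R, from the inverted repeats that border centromere 1, were near 0 throughout, at 0.0099 and 0.0201 in WT. Neither is among the RNAs with sequence here, so their repeat content was not read and their low levels are uncertain.

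At the mating-type region 1 of 5 RNAs was tested. SPNCRNA.388, 564 bases from mat1-Mc, stood at 3.8, 4.34 and 4.13 in WT, at 5.56, 5.39 and 6.64 in clr2D and at 2.56, 2.44 and 3.25 in chp2D. It rose in clr2D by 0.43 ± 0.12 (adjusted p = 0.0294) and fell in chp2D, at -0.45 (adjusted p = 0.0141). The rise was lost without WT replicate 1 or 3 or clr2D replicate 1 or 3 (adjusted p of 0.0505 to 0.11) and after quantile normalization (0.115), and the fall without chp2D replicate 1 or 2 (0.0545 and 0.0631). In clr1D and clr3D its means of 3.68 and 4.93 were not called against WT. SPNCRNA.389 and SPNCRNA.390 were listed at 0 in every library.

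The widest range of group means on the log2 scale, among the 291 intergenic RNAs unique throughout, was that of omt3 (SPNCRNA.130, chromosome 1, 4516070 to 4517070), whose promoter is printed above. It stood at 23.2, 14.8 and 17 in WT, at 10.9, 9.09 and 7.74 in clr1D and at 12.9, 8.36 and 9.69 in clr2D. In clr3D the values were 49.1, 23.6 and 32.1. In mit1D they were 2.54, 3.35 and 2.51, and in chp2D 2.41, 2.74 and 3.04. Thus clr3D lay above every WT library and the other deletions below. The log2 fold changes were -0.91 ± 0.22 in clr1D (adjusted p = 0.00954), -0.77 in clr2D (adjusted p = 0.0307), 0.85 in clr3D (adjusted p = 0.00854), -2.33 in mit1D (adjusted p = 2.65e-06) and -2.36 in chp2D (adjusted p = 3.79e-06). The clr3D level exceeded the mean of clr1D and clr2D by 1.69 ± 0.19 (adjusted p = 8.69e-06). The clr2D call was lost without WT replicate 1 (adjusted p = 0.124), WT replicate 3 (0.0614), clr2D replicate 2 (0.122) or clr2D replicate 3 (0.0784), and in a fit of only these groups (0.067). The clr3D call was lost in the fit of only WT and clr3D (0.066).

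The gene mei2, whose RNA-binding product starts meiosis, lies 1054 bases from omt3. Its means were 12.5 in WT, 7.25 in clr1D, 8.84 in clr2D, 18.5 in clr3D, 2.47 in mit1D and 2.67 in chp2D, with clr3D highest and mit1D and chp2D lowest, as for omt3. It fell in clr1D at -0.69 (adjusted p = 0.0302), in mit1D at -1.95 (adjusted p = 8.6e-06) and in chp2D at -1.86 (adjusted p = 1.72e-05). The clr2D and clr3D values of mei2 were not called (-0.45, adjusted p = 0.175, and 0.50, adjusted p = 0.0814). On the other side of omt3, at 341 bases, omt2 ranged only from 22.1 to 26 between group means. The intergenic SPNCRNA.993, between mei2 and omt3, fell from 0.945 in WT to 0.199 in mit1D and 0.16 in chp2D (adjusted p = 0.0216 and 0.0173). Both calls were lost without WT replicate 1 or 3, that in mit1D also without any 1 of its own libraries and that in chp2D without chp2D replicate 2, with adjusted p of 0.0504 to 0.0813.

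A group of RNAs upstream of hsr1, which encodes a transcription factor of the stress response, had lower levels in clr1D and clr2D. SPNCRNA.781 (chromosome 1, 1954820 to 1956332) stood at 9.41, 9.4 and 10.5 in WT, at 4.47, 2.99 and 3.82 in clr1D and at 5.64, 3 and 4.32 in clr2D. Its means were 7.84 in clr3D, 8.98 in mit1D and 8.41 in chp2D. The clr1D and clr2D libraries were all below WT, with log2 fold changes of -1.19 ± 0.15 (adjusted p = 4.5e-05) and -1.05 (adjusted p = 0.000203). In clr3D the value of -0.29 was not called (adjusted p = 0.167), and clr3D was higher than the mean of clr1D and clr2D by 0.83 ± 0.13 (adjusted p = 0.000146). SPNCRNA.779, SPNCRNA.780 and SPNCRNA.782 of the same stretch fell in clr1D from 7.1 to 3.19, from 8.04 to 3.52 and from 4.8 to 2.2. In clr2D their means were 3.38, 3.83 and 2.68 (adjusted p = 0.00334, 0.00427 and 0.0133), and the SPNCRNA.782 call there was lost without WT replicate 3 (0.0558) or clr2D replicate 2 (0.0701) and in a fit of only these groups (0.07). The gene hsr1, 1128 bases from SPNCRNA.781, fell as well, from 26.4 in WT to 15.7 in clr1D (adjusted p = 0.000444) and 16.9 in clr2D (adjusted p = 0.00203), and stood at 25.2 in clr3D.

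Beside cbm1, 3 RNAs linked by overlap made up the only calls between clr1D and clr2D. SPNCRNA.861 (chromosome 1, 2937952 to 2939052) stood at 42.6, 37.2 and 41.3 in WT and at 23.1, 22.3 and 21.8 in clr1D. Its means were 45.2 in clr2D, 48.8 in clr3D, 23.5 in mit1D and 22 in chp2D. SPNCRNA.862 had means of 314 in WT, 165 in clr1D, 337 in clr2D, 425 in clr3D, 215 in mit1D and 207 in chp2D. The clr1D, mit1D and chp2D levels were thus below WT, and those of clr3D above it. clr1D was lower than clr2D by -0.98 ± 0.05 for SPNCRNA.861 (adjusted p = 8.6e-10), -1.02 ± 0.11 for SPNCRNA.862 (adjusted p = 2.82e-05) and -1.02 ± 0.12 for SPNCRNA.863 (adjusted p = 6.42e-05). The rows of SPNCRNA.862 on the plus strand and SPNCRNA.863 on the minus strand held 42422 and 40753 reads in WT replicate 1, so they cannot be read as separate RNAs. Of their 50-base words 88.4% and 45.2% occur once in the genome, while SPNCRNA.861 is unique throughout. The gene cbm1, 872 bases away, followed another order, with 138 in WT, 25.2 in clr1D, 54.6 in clr2D, 53.1 in clr3D, 131 in mit1D and 123 in chp2D.

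A rise confined in its calls to the clr strains was that of SPNCRNA.144 (chromosome 1, 238509 to 238898), beside the gene SPAC806.11. It stood at 5.66, 4.73 and 4.79 in WT and at 12.1, 13.7 and 11.6 in clr1D, 2.46 times WT. Its means were 10.2 in clr2D, 9.34 in clr3D, 5.19 in mit1D and 4.95 in chp2D. Log2 fold changes were 1.15 ± 0.10 in clr1D (adjusted p = 5.63e-07), 0.88 in clr2D (adjusted p = 1.63e-05), 0.77 in clr3D (adjusted p = 4.5e-05), 0.03 in mit1D (adjusted p = 0.829) and -0.03 in chp2D (adjusted p = 0.848). The clr strains exceeded mit1D and chp2D by 0.93 ± 0.06 (adjusted p = 1.04e-08). SPNCRNA.627, which overlaps it and starts 17 bases from SPAC806.11, went from 4.13 in WT to 10.3 in clr1D and stood at 4.14 in mit1D. The neighbour SPAC806.11 moved the opposite way, from 152 in WT to 68.5 in clr1D, 74 in clr2D and 90.4 in clr3D (adjusted p = 2.52e-05, 9.18e-05 and 0.000873), with 138 in mit1D and 136 in chp2D.

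SPNCRNA.679 (chromosome 1, 762720 to 764810), 5 bases from puf5, a gene for an RNA-binding protein of the Puf family, rose in every deletion. It stood at 3.98, 4.08 and 4.05 in WT, at 9.69, 10.4 and 10.1 in clr1D and at 9.1, 10 and 10.9 in clr2D. The clr3D libraries were at 4.87, 6.08 and 5.43, those of mit1D at 8.29, 8.95 and 9.56 and those of chp2D at 7.59, 7.6 and 7.45. The log2 fold change was 1.14 ± 0.07 in clr1D (adjusted p = 7.94e-09), 0.36 in clr3D (adjusted p = 0.00142) and 0.98 in mit1D (adjusted p = 9.97e-08). clr3D was lower than the mean of clr1D and clr2D, by -0.78 ± 0.06 (adjusted p = 2.61e-07). The gene puf5 rose from 8.17 in WT to 11.3 in clr1D, 10.9 in clr2D, 11.6 in mit1D and 10.8 in chp2D, and its clr3D level of 8.32 was not called (adjusted p = 0.758).

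**Figure D5:**
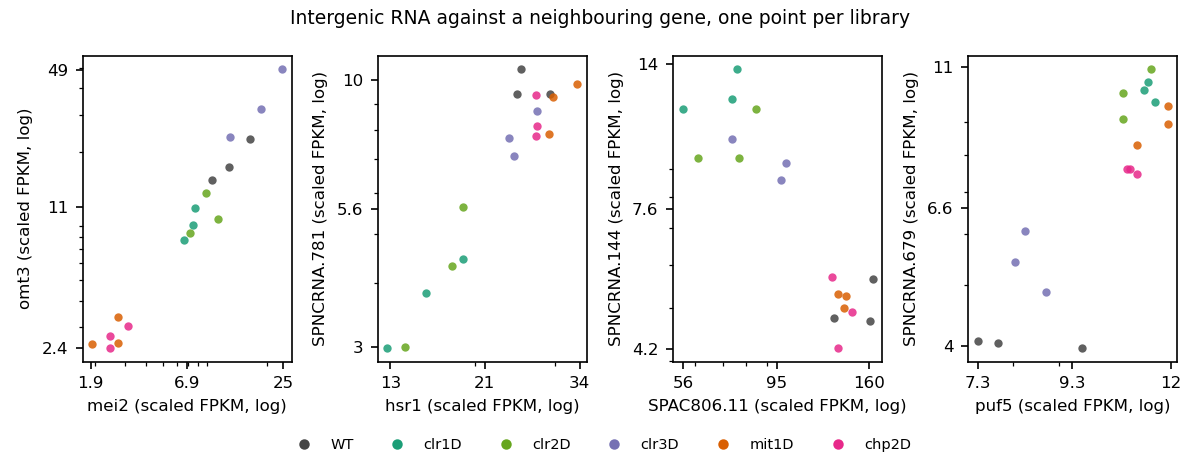
Level of an intergenic RNA (vertical, scaled FPKM, log axis) against that of a neighbouring gene (horizontal, log axis) in each library, for omt3 and mei2, SPNCRNA.781 and hsr1, SPNCRNA.144 and SPAC806.11, and SPNCRNA.679 and puf5. One point is 1 library, coloured by genotype. The omt3 panel runs from mit1D and chp2D at 2.41 to 3.35 up to clr3D at 23.6 to 49.1, and in the SPAC806.11 panel the clr libraries lie at the upper left.

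Across the RNAs as a whole, neighbours moved together only weakly. Over 296 pairs of a tested intergenic RNA and its nearest tested row of another type, Pearson's r between the log2 fold changes was 0.12 in clr1D, -0.02 in clr2D, -0.03 in clr3D, 0.24 in mit1D and 0.23 in chp2D. Spearman's rho was 0.08, 0.02, 0.06, 0.22 and 0.21 in the same order. These are descriptions across RNAs that share libraries and in part loci. Of 58 RNAs with such a neighbour that rose in clr1D, the neighbour rose in 9 cases, fell in 15 and was not called in 34, and of 23 that fell it fell in 10, rose in 1 and was not called in 12. Rises and falls made up 9.31% and 8.29% of all rows in clr1D. Of 31 that rose in mit1D the neighbour rose in 14 and fell in 2, and of 47 that fell it fell in 11 and rose in 9, beside 14.7% and 12.5% of all rows. Of 18 that rose in chp2D the neighbour rose in 8, and of 44 that fell it fell in 11 and rose in 3, beside 12% and 10.7% of all rows.

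Other RNAs were higher in clr1D and clr2D and lower in mit1D and chp2D than in WT. SPNCRNA.907 (chromosome 1, 3405538 to 3405929), 25 bases from SPAP32A8.02, stood at 25.6, 26 and 25 in WT. Its means were 33.8 in clr1D, 32.6 in clr2D and 34.8 in clr3D, and 18.8 in mit1D and 18 in chp2D. All 5 differences from WT were called, and the clr strains exceeded mit1D and chp2D by 0.84 ± 0.04 (adjusted p = 5.97e-11). SPNCRNA.810, between ymc1 and SPAC4G9.22, had means of 4.32 in WT, 6.8 in clr1D, 2.66 in mit1D and 2.84 in chp2D, with a difference of 0.93 ± 0.05 (adjusted p = 4.77e-10). SPNCRNA.115, an RNA of 92 bases, had 4.24 in WT, 7.92 in clr1D, 7.15 in clr2D, 2.45 in mit1D and 1.77 in chp2D, while its clr3D mean of 4.83 was not called (adjusted p = 0.572). The SPNCRNA.115 calls were lost in clr1D without WT replicate 3 or clr1D replicate 1 or 2, in clr2D without WT replicate 1 or 3 or clr2D replicate 1 or 2, and in mit1D without WT replicate 2 or mit1D replicate 1 or 2. They were also lost in clr1D and clr2D in a fit of only the groups compared (0.0771 and 0.0786), in clr2D with a pseudocount of 0.1 (0.0527) and after quantile normalization (0.067), and in mit1D in limma voom (0.153).

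SPNCRNA.950 and SPNCRNA.1190 rose in all 3 clr strains. SPNCRNA.950, between sut1 and hem1, went from 8.44 to 19.4, 17.1 and 18.4 in clr1D, clr2D and clr3D, and its means of 9.88 in mit1D and 8.69 in chp2D were not called. SPNCRNA.1190, 421 bases from ags1, a gene for an alpha-glucan synthase of the cell wall, went from 4.21 to 8.45, 7.72 and 8.65. In chp2D SPNCRNA.1190 fell to 2.69 (adjusted p = 0.015; 0.0558 without WT replicate 1, 0.0562 without chp2D replicate 2 and 0.0795 in limma voom), and in mit1D its mean was 3.25 (adjusted p = 0.116).

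Other large changes were those of clr3D. SPNCRNA.1255 stood at 10.3, 15.3 and 12.1 in WT and at 28.6, 31.1 and 26.3 in clr3D, a log2 fold change of 1.14 ± 0.10 (adjusted p = 1.16e-06). It was higher than the mean of clr1D and clr2D by 0.62 ± 0.09 (adjusted p = 6.73e-05). Its other means were 19.1 in clr1D, 17.6 in clr2D, 20.4 in mit1D and 15.6 in chp2D, all above the WT mean of 12.6. The rise of SPNCRNA.1255 was thus not confined to clr3D, and its clr1D and mit1D means were further from WT than its clr2D mean. Its clr2D call (adjusted p = 0.00561) was lost in 1 of 14 alternatives. Its chp2D call (adjusted p = 0.0437) was lost in 8 of 14. SPNCRNA.473 fell in clr3D from 2.15 to 0.717 (adjusted p = 0.00542), and SPNCRNA.305 fell from 9.95 to 5.8 (adjusted p = 6.22e-05). SPNCRNA.249 fell there from 3.01 to 1.35, and SPNCRNA.1431 from 2.15 to 0.941. SPNCRNA.720 fell from 3.81 to 2.2, and its clr3D level was lower than the mean of clr1D and clr2D, by -0.85 (adjusted p = 1.9e-06). fbp1-ot2, named for the glucose-repressed gene fbp1, fell from 1.12 to 0.47 (adjusted p = 0.00375; 0.0581 in a fit of only these groups).

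Falls in mit1D and chp2D included those of SPNCRNA.253, SPNCRNA.510, SPNCRNA.515 and SPNCRNA.392. SPNCRNA.253 went from 5.47 in WT to 2.2 in mit1D and 2.22 in chp2D (adjusted p = 0.000526 and 0.000734), and its clr means of 4.57, 4.69 and 5.99 were not called. SPNCRNA.392 went from 2.31 to 0.921 in chp2D (adjusted p = 0.00272). SPNCRNA.510 and SPNCRNA.942, a pair on opposite strands that shares reads, fell in mit1D at -0.84 and -0.83 (adjusted p = 0.000475 and 0.000443), and SPNCRNA.515 fell there from 88.6 to 51.6 (adjusted p = 0.00115). The pair was called lower in clr2D too (adjusted p = 0.0397 and 0.0368), each call being lost in 7 of 14 alternatives. SPNCRNA.877 rose in both mit1D and chp2D, from 1.28 to 2.81 and 2.83. It was also called higher in clr3D (adjusted p = 0.0137), a call lost in 4 of 14 alternatives. SPNCRNA.307 rose in mit1D from 1.19 to 2.88 (adjusted p = 0.00906).

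The small RNA sno530, of the snoRNA type by its name, fell in all 5 deletions. It stood at 146, 127 and 168 in WT, at 72.7, 69.5 and 72.8 in clr1D, at 81.8, 73.1 and 82.3 in clr2D and at 71.4, 64.3 and 74.4 in clr3D. In mit1D it stood at 99.9, 104 and 123 and in chp2D at 106, 114 and 112. Every deletion library lay below every WT library. The log2 fold change was -1.02 ± 0.09 in clr1D (adjusted p = 8.57e-07), -0.88 in clr2D, -1.05 in clr3D, -0.42 in mit1D (adjusted p = 0.00287) and -0.40 in chp2D (adjusted p = 0.00513). The clr strains were lower than mit1D and chp2D, by -0.57 ± 0.06 (adjusted p = 8.3e-07).

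Of the housekeeping RNAs, mrp1 was at 4688 in WT and fell to 3861 in clr3D, 3869 in mit1D and 3921 in chp2D (adjusted p = 0.00129, 0.00153 and 0.00315), while its clr1D and clr2D means were 4371 and 4424. srp7 stood at 1808, 1835 and 2278 in WT, at 1229, 1314 and 1532 in mit1D and at 1522, 1492 and 1530 in chp2D. It fell in mit1D and chp2D, at -0.54 (adjusted p = 0.00117) and -0.37 (adjusted p = 0.0139; 0.0773 without WT replicate 3), and the clr strains exceeded them by 0.55 ± 0.06 (adjusted p = 3.94e-06). The clr means of srp7 were 2142, 2146 and 2010. ncRNA.1343, known for its transcription into the promoter of the phosphate-starvation gene tgp1, had 17.1 in WT, 20 in clr1D, 14.5 in mit1D and 13.7 in chp2D. It rose in clr1D by 0.22 (adjusted p = 0.0202) and fell in mit1D and chp2D, at -0.22 (adjusted p = 0.0128) and -0.30 (adjusted p = 0.00237). The ncRNA.1343 rise was lost without WT replicate 1 or clr1D replicate 2 or 3 and in a fit of only the groups compared (0.0863), and the mit1D fall without mit1D replicate 1 (0.0567).

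snoR61, a small nucleolar RNA, went from 252 in WT to 204 in clr1D, 212 in clr2D, 198 in mit1D and 207 in chp2D (adjusted p = 6.28e-05, 0.000554, 1.78e-05 and 0.000176), and its clr3D mean of 268 was not called (adjusted p = 0.106).

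The prl RNAs are polyadenylated transcripts without a long reading frame. Of 14 tested, 1 fell in clr3D, 3 in mit1D and 2 in chp2D, beside falls of 14.1%, 12.5% and 10.7% among all rows. prl58, which abuts SPAC20G8.02, fell from 34.9 in WT to 26.6 in mit1D (adjusted p = 0.0451) and 26.2 in chp2D (adjusted p = 0.0391). prl24 fell in mit1D from 5.05 to 3.45 (adjusted p = 0.0184), prl51 fell there from 1.71 to 0.984 (adjusted p = 0.0356), and prl9 fell in chp2D from 4.64 to 3.48 (adjusted p = 0.0424). prl6 fell in clr3D from 3.79 to 2.15 (adjusted p = 0.0245). Each of these calls was lost without single libraries. Those were WT replicates 1 and 3, mit1D replicates 1 to 3 and chp2D replicates 1 and 2 for prl58, WT replicates 1 and 3 and mit1D replicate 2 for prl24, and WT replicates 2 and 3 and mit1D replicates 1 and 2 for prl51. They were WT replicates 1 and 3 and chp2D replicates 1 and 3 for prl9, and WT replicate 1 and clr3D replicates 2 and 3 for prl6, and the adjusted p without them was at most 0.211. In a fit of only the groups compared the calls of prl58, prl51, prl9 and prl6 were lost, and in limma voom those of prl58, prl51 and prl9. The mit1D call of prl58 was also lost without the filter (0.0517) and with FPKM as deposited (0.0503), and that of prl51 after quantile normalization (0.068). Others of the series, such as prl66 with group means of 13.9 to 15.6 and prl36 with 3.63 to 4.15, were called in no deletion. The same held for meu11, first found as an RNA induced in meiosis, at 1.15 to 1.96. aal1, an RNA linked to lifespan in stationary cells, was too weak to be tested, at 0.473 in WT.

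Moderate rises in every deletion were seen at unique loci too. SPNCRNA.86, between fin1 and pas1, went from 29.2 in WT to 38.6 in clr1D, 36.4 in clr2D, 36.8 in clr3D, 42.5 in mit1D and 43.6 in chp2D. Its log2 fold changes ran from 0.31 in clr2D (adjusted p = 0.000244) to 0.56 in chp2D (adjusted p = 8.91e-07). SPNCRNA.1399, between gap1 and sds23, went from 5.43 to between 6.48 in chp2D and 7.53 in clr1D, and its chp2D call was lost without WT replicate 2 or 3 or chp2D replicate 3, with FPKM as deposited (0.0853) and in a fit of only the groups compared (0.101). SPNCRNA.1278 fell in the clr strains from 6.97 to 4.06, 3.7 and 4. These RNAs, like SPNCRNA.950, SPNCRNA.1190, SPNCRNA.993, SPNCRNA.627 and SPNCRNA.782, were chosen after their values were seen.

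Of RNA turnover factors, a list of exosome, Mmi1 and decay genes, 28 were tested. In all, 4 were called in clr1D, 2 in clr2D, 7 in clr3D, 6 in mit1D and 4 in chp2D, beside 17.6%, 12.3%, 29%, 27.2% and 22.6% of all rows. Between deletions, 15 of the 28 were called for the clr strains against mit1D and chp2D and 10 for clr3D against the mean of clr1D and clr2D, beside 57.6% and 41.2% of all rows.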

How the data were processed

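RNA of 18 cultures was sequenced after ribosomal RNA removal with a stranded kit, per the labels' protocols. Reads were aligned with GSNAP to ASM294v2, per the submitters' processing notes. For the counting program and its strand setting, the sources used here give no name. The deposited table gives FPKM per gene, computed by the authors. Whole reads were recovered from FPKM times length; the 2301 to 5019 values per library fine enough for the check all lay within 0.1 read of a whole number. The table's 3 columns tied to no sample were not used.

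FPKM was scaled by median ratios over 6484 genes and tested as log2(value + 1) with limma 3.58.1 (lmFit, eBayes with trend; R 4.3.3) over all 18 libraries, 2-sided, for rows that reached an FPKM of 1 in 3 or more libraries. The fit was tested on simulated data with independent libraries and changes planted only in rows above a set WT level. That check does not cover replicates that deviate together or the weakest RNAs. A count model was not the main test because the test was planned on FPKM. The recovered reads were used in an alternative fit. Names and sequences come from RefSeq ASM294v3, which matched 6844 of 7018 rows and 333 of the 377 intergenic RNAs, 323 with the same coordinates. Members and lists were chosen with earlier results of these data known. Named RNAs were the largest called changes without overlap between groups, the strongest, the lowest F-test p, those at centromeres and the mating-type region, those with a symbol, and their neighbours. RNAs named outside that rule are given as such in the text. Samples of WT, clr1D, clr2D and clr3D with the same replicate number share a stem in their description labels, whose meaning is not given. They deviated together (correlations of 0.250 to 0.704). Samples of mit1D and chp2D share no stem and did not (-0.134 to 0.125). The main fit held no term for this pairing, so its SE and p values leave it out. A replicate block was run only as an alternative. Alternatives were a pseudocount of 0.1, no filter, other scalings, only the groups compared, a replicate block, limma voom on recovered reads, RNAs at least 100 bases from other rows, and leaving out each library.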

Additional observations from a re-analysis of the deposited data

How the results depend on the processing

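Counts of intergenic RNAs called moved by over 1.5 times under few alternatives. Quantile normalization gave 36 lower in clr1D, 29 lower in clr2D, 63 higher in clr3D against the mean of clr1D and clr2D, and 83 lower in the clr strains against mit1D and chp2D. FPKM as deposited gave 26 and 25 for the last 2 counts. A fit of only the groups compared gave 7 lower in clr2D and 1 higher in mit1D than in chp2D. RNAs at least 100 bases from other rows numbered 27 lower in mit1D and 28 in chp2D, out of fewer RNAs. A replicate block over WT and the clr strains, added after seeing the data, gave 73 lower in chp2D, and no other count of calls moved by over 1.5 times under the block. The cause of the other shifts was not tested.

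Leaving out 1 library gave 47 to 56 higher and 17 to 24 lower in clr1D, 39 to 44 and 9 to 19 in clr2D, 40 to 48 and 20 to 35 in clr3D, 26 to 32 and 33 to 43 in mit1D, and 12 to 19 and 39 to 55 in chp2D. It gave 0 and 3 to 4 for clr1D against clr2D, 28 to 50 and 53 to 70 for clr3D against the mean of clr1D and clr2D, 0 to 1 and 0 for mit1D against chp2D, 115 to 125 and 30 to 46 for the clr strains against mit1D and chp2D, and 175 to 185 by the F test. Of 3851 alternative values of 238 comparisons of the RNAs named, all called but SPNCRNA.231 in chp2D, 3648 kept direction and call. The others lost the call, except 4 of SPNCRNA.231 in chp2D that gained it, and no direction changed. The losses fell on 51 comparisons with adjusted p of 0.00375 to 0.0487. Among the 55 largest rises and falls, they were those of omt3 in clr2D. Up to 90 intergenic RNAs had under 10 reads in a library, and the part of depth in the lost calls was not tested.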

Other observations

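Overlapping intergenic rows on opposite strands held nearly equal reads at 3 strong loci. In WT replicate 1 SPNCRNA.507 and SPNCRNA.808 held 26059 and 26080 reads, and SPNCRNA.510 and SPNCRNA.942 held 6885 and 7022. SPNCRNA.862 and SPNCRNA.863 held 65994 and 64096 in WT replicate 3. Levels of such pairs are therefore uncertain as separate RNAs. SPNCRNA.510 had means of 904 in WT, 705 in clr1D, 657 in clr2D, 892 in clr3D, 508 in mit1D and 584 in chp2D, and SPNCRNA.507 had 2281, 2178, 1986, 2411, 1588 and 1796 in the same order.

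The gene emc5, which encodes a subunit of the endoplasmic reticulum membrane complex, lies 3775 bases from SPNCRNA.234. While SPNCRNA.234 was higher in every deletion, emc5 was lower in clr1D, clr2D and mit1D and was not called in clr3D and chp2D. Its means were 64.7 in WT, 36.9 in clr1D, 41.3 in clr2D, 62.8 in clr3D, 56.7 in mit1D and 63.3 in chp2D, with adjusted p of 1.83e-09, 3.37e-08, 0.485, 0.00424 and 0.612 for the deletions in that order.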
